A study of Mus musculus with 12 samples.

Results

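The 41 genes described here encode proteins of mitosis and of the G2 to M transition, and they were followed across 6 sorted cell groups of mouse bone marrow. They were taken from a fixed list of gene symbols and represented by the array probe of that name with the highest mean signal. All 41 were found among the 31541 gene names on the array, 29 by 1 probe and 12 by several. All 41 also passed the filter on dim probes, which left 18559 genes. Each was above background on both arrays of the hCD4+ pro-B, hCD4- pro-B and pre-B groups, so none passed through a pre-pro-B group alone. The list holds 9 genes of entry into mitosis, 7 of spindle assembly, 8 of the centromere and kinetochore, 4 of the spindle checkpoint, 3 of the chromosomal passenger complex, 2 of ubiquitination at anaphase, 6 of the midzone and cytokinesis and 2 of chromosome structure.

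The cells came from female C57BL/6 mice aged 16 weeks that carried the Cebpa-Enh/prom-hCD4 reporter, in which an enhancer and the promoter of Cebpa drive human CD4 (hCD4). Cebpa is a regulator of myeloid differentiation, and all 6 groups carried the transgene. The groups were hCD4+ granulocyte-monocyte progenitors (GMP), hCD4+ pre-pro-B cells, hCD4- pre-pro-B cells, hCD4+ pro-B cells, hCD4- pro-B cells and pre-B cells, each with 2 one-colour arrays of total RNA. The pre-B labels give no hCD4 state. The series title speaks of a pair of mice, and no label ties an array to an animal. The p-values below thus rest on the spread between arrays of a group, pooled over the 6 groups, which may be technical.

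A cell that divides copies its DNA in S phase, prepares in G2 and separates its chromosomes in M phase. Cyclin B with its kinase Cdk1 drives entry into M phase. Kinesins and kinetochores then attach chromosomes to the spindle, the checkpoint delays anaphase until all are attached, and the anaphase-promoting complex marks cyclin B and securin for destruction. Most of these genes are transcribed late in the cycle and are low in resting cells. The MuvB complex represses them in quiescence and, joined by B-Myb and FoxM1, activates them in G2, through a promoter element called the CHR (cell cycle genes homology region), often beside CCAAT boxes bound by NF-Y. In marrow, large dividing pro-B and pre-B cells are known to cycle, and later small pre-B cells rest.

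Promoter windows are printed because 40 of the 41 genes moved together in one comparison below, and the windows show the elements that many of them share. The sequences are RefSeq's on GRCm38.p6 and run from 120 bases before the gene start to 30 bases after it, in the direction of transcription. Capitals mark matches to the CHR (TTTGAA or TTCGAA) and to the CCAAT box (CCAAT), on either strand. Cdk1 (chr10:69352883-69353032, minus strand), Ccnb2 (chr9:70421525-70421674, minus strand), Cdc20 (chr4:118437314-118437463, minus strand), Bub1 (chr2:127831830-127831979, minus strand) and Top2a (chr11:99024160-99024309, minus strand) stand for several roles in mitosis. Cdk1 and Ccnb2 share the role of entry. Cdc25b (chr2:131186828-131186977, plus strand) had the largest difference between the reporter contrasts described below. Cks2 (chr13:51645112-51645261, plus strand) has CCAAT boxes and no CHR match in the window.
Cdk1: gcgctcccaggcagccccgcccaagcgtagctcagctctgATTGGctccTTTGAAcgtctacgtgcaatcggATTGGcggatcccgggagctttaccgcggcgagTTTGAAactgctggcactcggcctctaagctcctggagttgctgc
Ccnb2: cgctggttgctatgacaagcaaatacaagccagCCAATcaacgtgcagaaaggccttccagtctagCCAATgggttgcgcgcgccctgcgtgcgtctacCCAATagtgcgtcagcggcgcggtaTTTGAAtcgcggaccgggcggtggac
Cdc20: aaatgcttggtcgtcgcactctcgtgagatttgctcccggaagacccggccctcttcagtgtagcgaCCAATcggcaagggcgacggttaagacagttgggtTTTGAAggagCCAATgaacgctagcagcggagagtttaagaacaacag
Bub1: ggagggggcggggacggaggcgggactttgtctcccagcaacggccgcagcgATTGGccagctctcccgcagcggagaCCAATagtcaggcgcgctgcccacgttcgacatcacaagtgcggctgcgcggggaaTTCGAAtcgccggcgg
Top2a: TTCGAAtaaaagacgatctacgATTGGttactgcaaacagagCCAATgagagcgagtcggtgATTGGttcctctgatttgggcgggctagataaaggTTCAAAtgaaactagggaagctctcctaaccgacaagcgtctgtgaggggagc
Cdc25b: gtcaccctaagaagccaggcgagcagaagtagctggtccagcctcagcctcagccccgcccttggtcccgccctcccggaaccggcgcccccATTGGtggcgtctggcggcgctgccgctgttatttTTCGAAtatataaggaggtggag
Cks2: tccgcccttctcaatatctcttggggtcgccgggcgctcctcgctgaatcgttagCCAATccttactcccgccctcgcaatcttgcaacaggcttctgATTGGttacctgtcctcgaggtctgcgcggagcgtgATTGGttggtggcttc

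RefSeq's table held 37 promoters of 35 of the 41 genes, each with 250 bases before and 50 after the start. The CHR was searched as TTTGAA or TTCGAA and the CCAAT box as CCAAT, both on either strand. TTCGAA reads the same on both strands and was counted once, and a CHR and a CCAAT match can share a base at their ends. A CHR match lay in 30 of the 37 windows (81.1%), against 19.2% of all 32851 promoters of the table. A CCAAT match likewise lay in 30 (81.1%), against 37.4% of all promoters. Both were found in 73.0% of the members' windows and in 7.52% of all promoters. At least 2 CCAAT matches lay in 54.1% of the members' windows and in 11.7% of all. Of the members' 40 CHR matches 72.5% lay within 50 bases of the gene start, against 26.1% of the matches in all promoters. These are matches of letters and not measured binding. Birc5, Ccnb1, Cenpe, Cks2, Mad2l1, Nuf2 and Nusap1 had no CHR match in the window. Aurkb, Ccna2, Cdc25c, Kif20a, Spc24 and Tpx2 were not matched to the table. Among the lists set beside the members, 58.0% of the promoters of other mitotic genes had a CHR match, 54.5% of those of condensin and cohesin subunits, 20.0% of those of DNA replication genes and 16.7% of those of subunits of the anaphase-promoting complex.

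**Figure D1:**
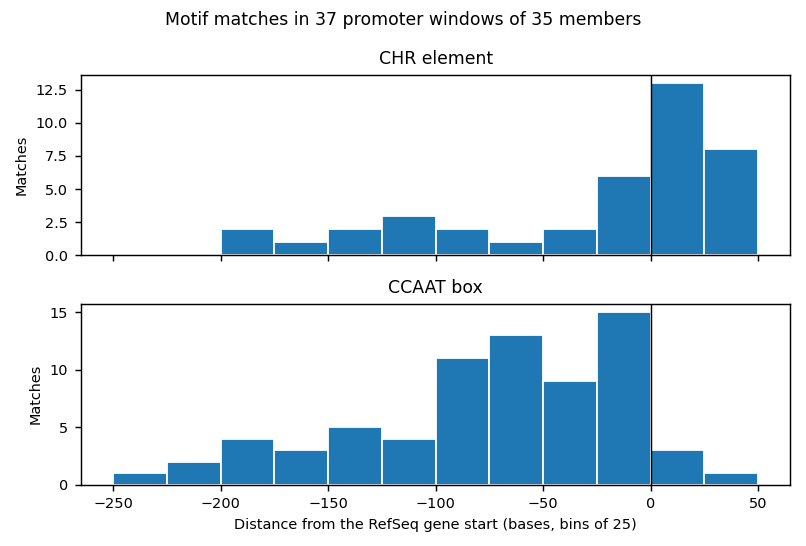
Histograms of the midpoints of motif matches in the 37 promoter windows of 35 members, by distance from the RefSeq gene start in bases (bins of 25), with the CHR above and the CCAAT box below. Bars count matches, and the vertical line marks the gene start. Of the 40 CHR matches 72.5% lay within 50 bases of the start, while the CCAAT matches lay mostly before it.

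A level below is the log2 of the processed signal minus that array's 75th percentile, so a level of 0 is the brightness of that percentile. It is relative to the other genes on the array and does not measure RNA per cell. A change is the difference of 2 group means of these levels. A change was called when limma's p, adjusted by Benjamini-Hochberg over all 18559 genes, was under 0.05. No spot was saturated. Brightness at the 75th percentile was 246 and 358 on the 2 hCD4- pre-pro-B arrays, less than the 435 to 946 of the other 10. These 2 arrays also had the widest spread between replicates, with a median standard deviation over the members of 0.33 against 0.07 to 0.15 in the other groups. The standard errors below pool the spread of all groups, so they can understate it in comparisons with hCD4- pre-pro-B cells. The arrays lay on 3 slides, each scanned as 1 run, of which the first held GMP with hCD4- pre-pro-B, the second held hCD4+ pre-pro-B beside hCD4- pro-B, and the third hCD4+ pro-B with pre-B. Those 3 pairs of groups can be compared within a slide, where a slide term leaves the change as it is. In every other comparison here the slide cannot be told apart from the group. Scaling by each array's median in place of its 75th percentile moved the median change of all genes by -0.52 to 0.45 over the comparisons, and changes are given relative to the 75th percentile.

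Checked against marker genes, Ebf1 and Pax5, which define committed B cells, were not above background in either pre-pro-B group or in GMP. All 13 B progenitor markers were above it on both arrays in the pro-B and pre-B groups. In hCD4+ and hCD4- pre-pro-B cells 8 and 7 of the 13 were, and in GMP 5. Linear levels of the 13 (1 is the 75th percentile) summed to 117 to 121 in hCD4+ and 140 to 148 in hCD4- pre-pro-B cells. The higher of the GMP sums was 9.97. Summed over 10 markers of granulocyte-monocyte progenitors, linear levels were 991 to 1205 in GMP and 135 to 150 in hCD4+ pro-B cells. They were 18.9 to 43.4 in hCD4+ and 4.35 to 5.05 in hCD4- pre-pro-B cells. Markers of plasmacytoid dendritic cells were highest in the pre-pro-B groups, at 1015 to 1068 in hCD4+ and 1368 to 1407 in hCD4- cells. In hCD4+ and hCD4- pro-B cells they summed to 220 to 228 and 150 to 155. The sums were 129 to 132 in GMP and 298 to 311 in pre-B cells. The share of such cells in any group was not tested.

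The 41 genes were lowest as a set in hCD4- pre-pro-B cells. Their median level was 1.84 in GMP, 1.95 and -0.34 in hCD4+ and hCD4- pre-pro-B cells, 2.84 and 3.05 in hCD4+ and hCD4- pro-B cells, and 2.88 in pre-B cells. In 40 of the 41, both hCD4- pre-pro-B arrays lay below all 10 other arrays. The exception was Aurkb. In 32, all 6 pro-B and pre-B arrays lay above all 6 GMP and pre-pro-B arrays. The group with the highest mean was hCD4- pro-B for 30 genes, hCD4+ pro-B for 6, pre-B for 4 and GMP for 1, Cks2. In hCD4- pre-pro-B cells 36 of the 41 were still above background on both arrays, so most of them were low and not undetected. Cenpf and Ttk were above background on neither array there. These orders describe the levels and were not tested, and the shares of all genes with such orders are not given.

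**Figure D2:**
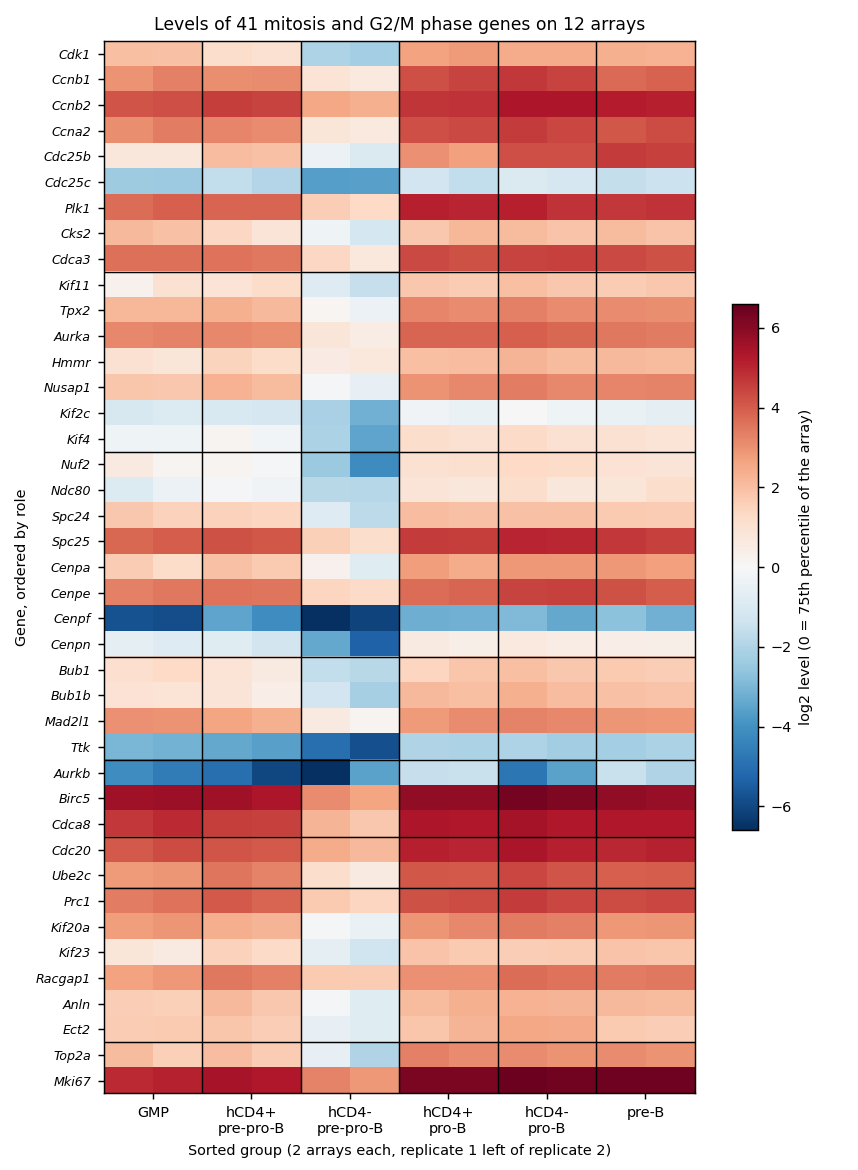
Heat map of the log2 levels of the 41 genes (rows, in blocks by role, separated by lines) on the 12 arrays (columns, 2 for each group). Red is above and blue below the array's 75th percentile. The hCD4- pre-pro-B columns are the palest or bluest in 40 rows, and Aurkb, Cenpf, Ttk and Cdc25c, with Kif2c, stay below 0 on every array.

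Among the genes of entry into mitosis, Cdk1, the kinase that drives it (probe at chr10:68801072-68801131 in mm9, as all probe positions here), had levels of 1.98 and 1.95 on the GMP arrays, 1.15 and 0.99 on the hCD4+ and -2.05 and -2.26 on the hCD4- pre-pro-B arrays, 2.67 and 2.80 on the hCD4+ and 2.46 and 2.46 on the hCD4- pro-B arrays, and 2.36 and 2.27 on the pre-B arrays. Ccnb1, its cyclin B1 partner (chr13:101548722-101548781), had levels of 2.98 and 3.34 on the GMP arrays, 3.09 and 3.13 on the hCD4+ and 0.91 and 0.63 on the hCD4- pre-pro-B arrays, 4.25 and 4.47 on the hCD4+ and 4.67 and 4.45 on the hCD4- pro-B arrays, and 3.75 and 3.87 on the pre-B arrays. Plk1, a kinase needed for spindle poles and for the onset of mitosis (chr7:129313220-129313279), had levels of 3.69 and 3.95 on the GMP arrays, 3.86 and 3.86 on the hCD4+ and 1.60 and 1.30 on the hCD4- pre-pro-B arrays, 5.12 and 5.03 on the hCD4+ and 5.11 and 4.79 on the hCD4- pro-B arrays, and 4.69 and 4.76 on the pre-B arrays. In each of the 3 the lowest pair was hCD4- pre-pro-B, clear of every other array, GMP and hCD4+ pre-pro-B cells lay between, and the pro-B and pre-B arrays were highest. The role as a whole had median levels of 3.16 in GMP, 3.11 and 0.75 in hCD4+ and hCD4- pre-pro-B cells, 4.29 and 4.50 in hCD4+ and hCD4- pro-B cells, and 4.21 in pre-B cells.

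Cdc25b kept that order with wider steps, and Cks2 departed from it. Cdc25b encodes a phosphatase that activates Cdk1 (chr2:131023911-131023970), with levels of 0.73 and 0.73 on the GMP arrays, 2.02 and 1.96 on the hCD4+ and -0.40 and -0.98 on the hCD4- pre-pro-B arrays, 2.99 and 2.69 on the hCD4+ and 4.27 and 4.25 on the hCD4- pro-B arrays, and 4.59 and 4.53 on the pre-B arrays. It was higher on the hCD4- pro-B and pre-B arrays than on every other array, and its GMP arrays lay below both hCD4+ pre-pro-B arrays. Cks2, a small protein that binds cyclin-dependent kinases (chr13:51745799-51745858), had levels of 2.13 and 1.92 on the GMP arrays, 1.35 and 0.86 on the hCD4+ and -0.27 and -1.17 on the hCD4- pre-pro-B arrays, 1.78 and 2.17 on the hCD4+ and 2.10 and 1.87 on the hCD4- pro-B arrays, and 2.08 and 1.89 on the pre-B arrays. Its GMP arrays overlapped those of the pro-B and pre-B groups.

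Among the spindle genes, Kif11, the kinesin that pushes spindle poles apart (chr19:37495755-37495814), had levels of 0.29 and 1.02 on the GMP arrays, 0.90 and 1.20 on the hCD4+ and -0.86 and -1.53 on the hCD4- pre-pro-B arrays, 1.78 and 1.68 on the hCD4+ and 1.98 and 1.76 on the hCD4- pro-B arrays, and 1.69 and 1.80 on the pre-B arrays. GMP and hCD4+ pre-pro-B arrays overlapped, below the pro-B and pre-B arrays and above the hCD4- pre-pro-B arrays. At the kinetochore, Nuf2, a subunit of the Ndc80 complex that grips microtubules (chr1:171428989-171429048), had levels of 0.61 and 0.19 on the GMP arrays, 0.18 and -0.06 on the hCD4+ and -2.46 and -4.16 on the hCD4- pre-pro-B arrays, 1.03 and 1.04 on the hCD4+ and 1.29 and 1.20 on the hCD4- pro-B arrays, and 0.96 and 0.83 on the pre-B arrays. Its hCD4- pre-pro-B pair lay far below all other arrays but 1.70 apart from each other by log2 level, and it was above background on 1 of the 2. Cenpe, a kinesin of the kinetochore (chr3:134936387-134936446), had levels of 3.33 and 3.48 on the GMP arrays, 3.59 and 3.52 on the hCD4+ and 1.39 and 1.25 on the hCD4- pre-pro-B arrays, 3.68 and 3.86 on the hCD4+ and 4.48 and 4.50 on the hCD4- pro-B arrays, and 4.20 and 4.0 on the pre-B arrays. Here the hCD4- pro-B arrays were the highest pair and did not overlap the hCD4+ pro-B arrays.

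The checkpoint kinase gene Bub1 (chr2:127626988-127627047) had levels of 1.12 and 1.31 on the GMP arrays, 0.88 and 0.59 on the hCD4+ and -1.60 and -1.82 on the hCD4- pre-pro-B arrays, 1.41 and 1.83 on the hCD4+ and 1.98 and 1.79 on the hCD4- pro-B arrays, and 1.73 and 1.62 on the pre-B arrays. Cdc20, which activates the anaphase-promoting complex once the checkpoint is met (chr4:118105534-118105593), had levels of 4.06 and 4.28 on the GMP arrays, 4.13 and 4.04 on the hCD4+ and 2.47 and 2.12 on the hCD4- pre-pro-B arrays, 5.11 and 5.02 on the hCD4+ and 5.40 and 5.16 on the hCD4- pro-B arrays, and 4.96 and 5.07 on the pre-B arrays. Both showed the hCD4- pre-pro-B arrays lowest and the pro-B and pre-B arrays highest. Kif23, a kinesin of the midzone that cytokinesis needs (chr9:61767492-61767732), had levels of 0.80 and 0.61 on the GMP arrays, 1.51 and 1.27 on the hCD4+ and -0.59 and -1.31 on the hCD4- pre-pro-B arrays, 1.91 and 1.74 on the hCD4+ and 1.63 and 1.66 on the hCD4- pro-B arrays, and 1.88 and 1.83 on the pre-B arrays. In Kif23 the GMP arrays lay below the hCD4+ pre-pro-B arrays and above the hCD4- pair.

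Top2a, the topoisomerase that untangles sister chromatids (chr11:98855522-98855581), had levels of 2.10 and 1.58 on the GMP arrays, 2.01 and 1.65 on the hCD4+ and -0.53 and -1.98 on the hCD4- pre-pro-B arrays, 3.31 and 3.11 on the hCD4+ and 3.13 and 2.97 on the hCD4- pro-B arrays, and 3.13 and 2.95 on the pre-B arrays. Mki67, a coat protein of mitotic chromosomes used as a marker of cycling cells (chr7:142881591-142881650), had levels of 4.90 and 5.10 on the GMP arrays, 5.46 and 5.30 on the hCD4+ and 3.30 and 2.85 on the hCD4- pre-pro-B arrays, 6.19 and 6.22 on the hCD4+ and 6.50 and 6.39 on the hCD4- pro-B arrays, and 6.42 and 6.41 on the pre-B arrays. In both, the pro-B and pre-B arrays were above all others, and the hCD4- pre-pro-B arrays below all others.

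Aurkb, the kinase of the chromosomal passenger complex (chr11:68865105-68865164), stood apart. Its single probe had levels of -4.10 and -4.64 on the GMP arrays, -4.97 and -5.99 on the hCD4+ and -6.72 and -3.55 on the hCD4- pre-pro-B arrays, -1.52 and -1.47 on the hCD4+ and -4.76 and -3.55 on the hCD4- pro-B arrays, and -1.49 and -2.0 on the pre-B arrays. It was above background on both arrays of the pro-B and pre-B groups, on 1 of 2 GMP arrays, on neither hCD4+ pre-pro-B array and on 1 of 2 hCD4- pre-pro-B arrays, whose levels differed by 3.18. Its partners in the complex followed the other members. Birc5, or survivin, was at 5.58 and 5.31 on the hCD4+ and 3.11 and 2.62 on the hCD4- pre-pro-B arrays, and Cdca8, or borealin, at 4.57 and 4.51 and 2.26 and 1.77.

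**Figure D3:**
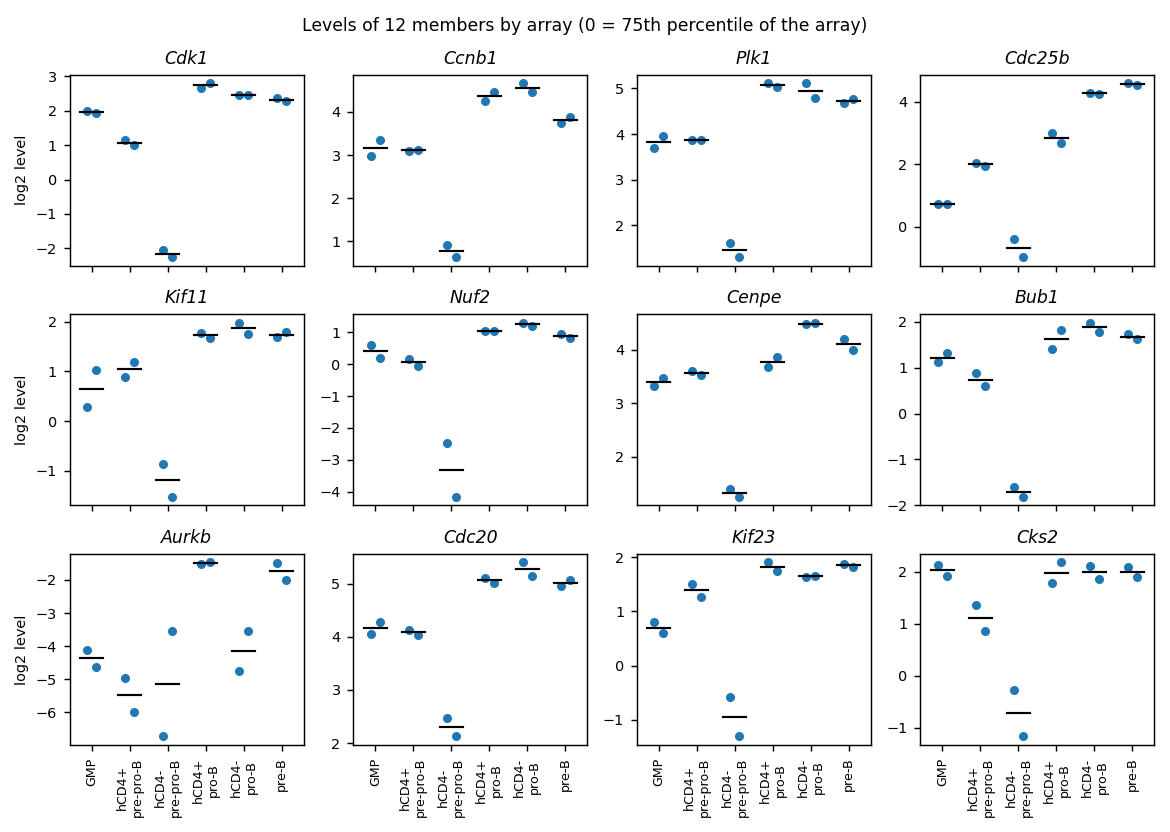
Log2 levels (vertical axis, 0 is the array's 75th percentile) of 12 members in the 6 groups, with a point for each array and a line at the group mean, and a vertical scale of its own for each gene. The hCD4- pre-pro-B pair is lowest in every panel but that of Aurkb, where the replicates scatter most.

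The comparison of hCD4+ with hCD4- pre-pro-B cells asks what differs between early B-lineage cells with and without activity of the Cebpa reporter. Here 40 of the 41 genes were called higher in hCD4+ cells and none lower, where 8.78% of all genes were called higher and 8.27% lower. The median change of the members was 2.40 on the log2 scale, or 5.29-fold, against -0.06 for all genes. In 40 of the 41 the 2 hCD4+ arrays lay above both hCD4- arrays, a description given without the share of all genes. Every role had called members, with medians from 2.15 for ubiquitination at anaphase to 2.70 for chromosome structure. With each of the 12 arrays left out in turn, 39 to 41 were called. With only the 4 arrays compared in the fit, 27 were called.

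The largest rises in hCD4+ pre-pro-B cells were those of Nuf2, 3.37 (standard error 0.45, adjusted p = 0.00211), of Cenpn, 3.36 (standard error 0.51, adjusted p = 0.00394), of Cdk1, 3.23 (standard error 0.12, adjusted p = 1.23e-05), and of Top2a, 3.09 (standard error 0.41, adjusted p = 0.00212). Cenpn, which binds centromeric nucleosomes, had levels of -0.58 and -0.85 on the GMP arrays, -0.82 and -1.19 on the hCD4+ and -3.39 and -5.33 on the hCD4- pre-pro-B arrays, 0.59 and 0.36 on the hCD4+ and 0.66 and 0.51 on the hCD4- pro-B arrays, and 0.44 and 0.37 on the pre-B arrays. Its hCD4- pre-pro-B arrays, 1 of which was above background, lay 1.94 apart and below all others. The smallest called rise was that of Hmmr, a spindle protein, by 0.75 (standard error 0.13, adjusted p = 0.00891), with 1.48 and 1.23 on the hCD4+ and 0.53 and 0.68 on the hCD4- arrays. Aurkb was not called, and no change is given for it because 1 of its 4 arrays here was above background. Cenpf, a kinetochore protein, was at least 1.31-fold higher (adjusted p = 0.000633) and the checkpoint kinase gene Ttk at least 1.63-fold higher (adjusted p = 0.00198), given as bounds since neither was above background on the hCD4- arrays. Here and below, the adjusted p beside a bound is limma's for the fitted change. That change rests in part on levels under background, and the bound itself was not tested.

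Among the entry genes, beside Cdk1, Ccnb1 rose by 2.34 (standard error 0.17), Plk1 by 2.41 (standard error 0.16), Cdc25b by 2.68 (standard error 0.19) and Cks2 by 1.82 (standard error 0.30). In the later steps, Kif11 rose by 2.24 (standard error 0.28), Cenpe by 2.24 (standard error 0.12), Bub1 by 2.45 (standard error 0.18), Cdc20 by 1.79 (standard error 0.15), Kif23 by 2.34 (standard error 0.22) and Mki67 by 2.31 (standard error 0.16). The genes with a CHR match in the promoter window had a median change of 2.41 (28 genes), and those without had 2.34 (7 genes).

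Different probes of a gene did not always give the same size. Of the 11 members with several kept probes, 3 had another probe more than 1 away in this comparison, all with the same sign. The other Cdk1 probes changed by 1.58 and 1.17, the other Tpx2 probe by 0.18 and the other Ect2 probe by 1.39. Tpx2 targets Aurka to the spindle and Ect2 activates the contractile ring at cytokinesis.

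Other genes of division moved alongside. These lists were chosen with earlier results of these data known. Of 51 kept other mitotic genes 47 rose and none fell, with a median change of 2.36. Among them Oip5, of centromere assembly, was at least 6.75-fold higher (adjusted p = 0.00218), Ckap2l, a spindle protein, rose by 3.09 (standard error 0.58), the kinase gene Pbk by 3.09 (standard error 0.36) and Espl1, or separase, by 2.97 (standard error 0.43). Those not called were Troap, Cep55, Cenpq and Pttg1, or securin, which changed by -0.05 (standard error 0.16, adjusted p = 0.847). Of 13 condensin and cohesin subunits 12 rose (median 1.15), led by the condensin subunits Ncapg, at least 2.06-fold higher (adjusted p = 0.000149), and Ncaph, 2.53 (standard error 0.13). The cohesin subunit Stag2 changed by 0.33 (standard error 0.12, adjusted p = 0.0937) and was not called. Subunits of the anaphase-promoting complex, which is present through the cycle, had 6 of 15 higher (median 0.29). Of 30 DNA replication genes 28 rose (median 1.82), among them Orc1, of the origin recognition complex, at least 1.92-fold higher (adjusted p = 0.00712), Rrm2, 2.59 (standard error 0.12), and Mcm10, 2.45 (standard error 0.10), and those not called were Rfc3 and Ccne2.

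Regulators of these genes had 11 of 18 higher and 2 lower. E2f7 rose by 2.75 (standard error 0.10) and E2f8 by 2.69 (standard error 0.11), both repressors of the E2F family, while Mybl2, or B-Myb, rose by 1.96 (standard error 0.16) and the activator E2f2 by 1.93 (standard error 0.12). Foxm1, chosen after its value was seen, rose by 1.56 (standard error 0.13). The pocket protein gene Rbl2, or p130, which represses cell cycle genes in resting cells, fell by 1.07 (standard error 0.20), and Lin52 of the MuvB complex fell by 0.56 (standard error 0.13). A list of 14 genes around the restraint of mitosis had 4 that rose and 1 that fell (median 0.15). Mastl, or Greatwall, which promotes mitosis by holding back a phosphatase, rose by 2.53 (standard error 0.15). Pkmyt1 and Wee1, kinases that inhibit Cdk1, rose by 2.19 (standard error 0.12) and 1.53 (standard error 0.14), and the inhibitor gene Cdkn1a, or p21, by 1.98 (standard error 0.27). The checkpoint kinase gene Chek1 fell by 1.74 (standard error 0.34).

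In sorted bulk RNA a larger share of dividing cells and more of these transcripts in each dividing cell cannot be told apart. Markers of other cell types moved between the same groups. The GMP markers were above background on both arrays for 9 of 10 genes in hCD4+ and 6 of 10 in hCD4- cells, where Prtn3, Ms4a3 and Cebpe were above it on neither array. Markers of plasmacytoid dendritic cells, 10 of 10 above background in both groups, summed to 1015 to 1068 in hCD4+ and 1368 to 1407 in hCD4- cells. Plasma cell markers summed to 43.0 to 50.2 in hCD4+ and 60.8 to 64.3 in hCD4- cells. Among them Jchain changed by -5.48 (standard error 0.82, adjusted p = 0.00361) and Mzb1 by -0.65 (standard error 0.17, adjusted p = 0.0368). The other kept plasma cell markers were not called. Erythroid markers summed to 7.44 to 9.62 in hCD4+ and 3.82 to 9.12 in hCD4- cells, and Klf1, Epor, Alas2 and Slc4a1 were above background on no array of either group. Markers of T and NK cells summed to 17.7 to 19.2 in hCD4+ and 17.0 to 20.4 in hCD4- cells, and those of mature neutrophils to 0.34 to 0.35 and 0.91 to 2.78. The part of these cells in the difference was not tested.

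The split of all called genes depended on the scaling here: 51.5% of them were higher in hCD4+ pre-pro-B cells, 68.3% with cyclic loess and 83.4% with array-median scaling. The median change of the members was 2.15 in the authors' deposited table and 2.71 with array-median scaling.

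In pro-B cells the same comparison gave small differences. Of the 41 genes 0 were called higher and 4 lower in hCD4+ than in hCD4- pro-B cells, where 11.6% of all genes were called higher and 8.86% lower. The lower calls were near the share of all genes, so their count does not set the members apart. At an unadjusted p under 0.05 the count was 9, and the authors' deposited table gave 7 calls in the same limma fit. The median change was -0.18, against 0.02 for all genes. A negative sign was found in 34 of the 41, a count given without the share of all genes. The 4 were Cdc25b, which changed by -1.42 (standard error 0.19, adjusted p = 0.00195), Cenpe, -0.72 (standard error 0.12, adjusted p = 0.00633), Racgap1, which builds the central spindle, -0.63 (standard error 0.12, adjusted p = 0.0083), and Ccnb2, cyclin B2, -0.58 (standard error 0.11, adjusted p = 0.0102). Racgap1 had levels of 2.99 and 3.03 on the hCD4+ and 3.70 and 3.58 on the hCD4- arrays, and Ccnb2 of 4.72 and 4.79 and 5.36 and 5.31. In all 4 the hCD4+ arrays lay below both hCD4- arrays.

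None of the other 37 members was called. Cdk1 changed by 0.28 (standard error 0.12, adjusted p = 0.137), Plk1 by 0.12 (standard error 0.16, adjusted p = 0.628), Ccnb1 by -0.20 (standard error 0.17, adjusted p = 0.433), Top2a by 0.16 (standard error 0.41, adjusted p = 0.819) and Mki67 by -0.23 (standard error 0.16, adjusted p = 0.335). One further Cdk1 probe gave a change of 2.66, so the Cdk1 value rests on the brightest probe. Aurkb changed by 2.66 (standard error 0.90, adjusted p = 0.0727), with levels of -1.52 and -1.47 on the hCD4+ and -4.76 and -3.55 on the hCD4- arrays, and was not called. The count of calls was 7 without either hCD4- pre-pro-B array and 2 without hCD4- pro-B replicate 1. Among all called genes 56.7% were higher in hCD4+ cells, and 31.1% with array-median scaling, which also moved the members' median to -0.40. Markers of mature neutrophils summed to 0.70 to 1.19 in hCD4+ and 14.2 to 25.8 in hCD4- pro-B cells, and GMP markers to 135 to 150 and 3.86 to 4.54. Their part was not tested.

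The difference between the reporter contrasts, pro-B minus pre-pro-B, was tested as an interaction. It was called for 40 of the 41 genes, all negative, where 13% of all genes were called positive and 10% negative, with a median of -2.58 against 0.06 for all genes. It was largest for Cdc25b, -4.10 (standard error 0.26, adjusted p = 0.000163), Nuf2, -3.58 (standard error 0.63, adjusted p = 0.00708), Cenpn, -3.47 (standard error 0.72, adjusted p = 0.0129), and Spc25, a subunit of the Ndc80 complex, -3.21 (standard error 0.22, adjusted p = 0.000163). Spc25 had levels of 4.61 and 4.55 on the hCD4+ and 5.02 and 4.97 on the hCD4- pro-B arrays, and of 4.22 and 4.09 on the hCD4+ and 1.56 and 1.17 on the hCD4- pre-pro-B arrays. Aurkb was not called, and its difference rests on pre-pro-B arrays of which 1 of 4 was above background. Cenpf and Ttk were above background on neither hCD4- pre-pro-B array, so the sizes of their differences rest on background there. Of the 11 members with several kept probes 5 had another probe more than 1 away, namely Birc5, Ccnb1, Cdk1, Ect2 and Tpx2. The other Cdk1 probes had differences of -0.99 and 1.08, the second of opposite sign, where the brightest had -2.95. The other Tpx2 probe had -0.016, against -2.45. Each stage's contrast also crosses slides in its own way, so its slide effect cannot be told apart from its groups. The interaction shares its pre-pro-B arrays with the reporter comparison in pre-pro-B cells, so the counts of 40 are not separate evidence. Among all called genes 56.6% were positive, and between 18.0% (array-median scaling) and 45.9% (quantile normalization) under the other array scalings.

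**Figure D4:**
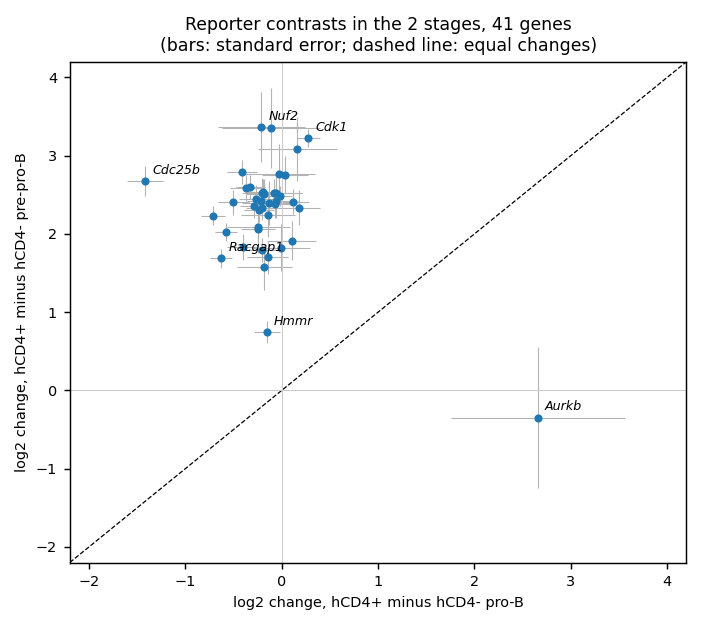
Scatter of the hCD4+ minus hCD4- log2 change in pro-B cells (horizontal) and in pre-pro-B cells (vertical) for the 41 genes, with bars of 1 standard error in each direction and a dashed line of equal changes. Of the 41 genes 40 lie above the line, with pre-pro-B changes of 0.75 to 3.37. Aurkb lies below it with the widest bars, and 1 of its 4 pre-pro-B arrays was above background.

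Along the B lineage, the members were higher in pro-B than in pre-pro-B cells. In hCD4- cells, 40 of the 41 rose in pro-B relative to pre-pro-B cells and none fell, where 32.7% of all genes were called higher and 26.9% lower, and the median change was 3.25 (9.48-fold) against 0.02 for all genes. The largest rises were those of Cdc25b, 4.95 (standard error 0.19, adjusted p = 2.63e-07), Cenpn, 4.95 (standard error 0.51, adjusted p = 5.98e-05), Cdk1, 4.61 (standard error 0.12, adjusted p = 9.06e-08), and Nuf2, 4.55 (standard error 0.45, adjusted p = 4.61e-05). Aurkb changed by 0.98 (standard error 0.90, adjusted p = 0.375) and was above background on 1 of the 2 hCD4- pre-pro-B arrays. The other probes of Cdk1 changed by 3.17 and 1.94, that of Tpx2 by 1.15 and that of Ect2 by 1.37, where the brightest gave 3.37 for Tpx2 and 3.21 for Ect2. Markers of plasmacytoid dendritic cells summed to 150 to 155 in hCD4- pro-B cells, with Runx2 above background on neither array, and to 1368 to 1407 in hCD4- pre-pro-B cells. Neutrophil markers summed to 14.2 to 25.8 in hCD4- pro-B and 0.91 to 2.78 in hCD4- pre-pro-B cells, with 7 and 3 of 10 above background on both arrays. Their part in the difference was not tested. This comparison shares its hCD4- pre-pro-B arrays with the reporter comparison above, so the 2 counts of 40 are not separate evidence.

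In hCD4+ cells the step was smaller. In pro-B relative to pre-pro-B cells 26 of the 41 rose and 1 fell, where 33.1% of all genes were called higher and 21.1% lower, and the median change was 0.77 against 0.25 for all genes. Aurkb was at least 9.46-fold higher (adjusted p = 0.00616), Cdk1 rose by 1.66 (standard error 0.12, adjusted p = 1.38e-05), Cenpn by 1.48 (standard error 0.51, adjusted p = 0.037) and Ttk by 1.43 (standard error 0.25, adjusted p = 0.00174). Ttk had -2.0 and -2.10 on the hCD4+ pro-B against -3.36 and -3.61 on the hCD4+ pre-pro-B arrays, with no overlap. The only fall was that of Racgap1, -0.38 (standard error 0.12, adjusted p = 0.0244), with 2.99 and 3.03 on the hCD4+ pro-B against 3.46 and 3.31 on the hCD4+ pre-pro-B arrays. The other kept Racgap1 probe changed by -0.13. All 4 checkpoint genes rose (median 1.15), while 1 of the 6 midzone and cytokinesis genes, Kif20a, rose by 0.74 (standard error 0.15). Another Cdk1 probe gave 4.25. Markers of plasmacytoid dendritic cells summed to 220 to 228 in hCD4+ pro-B and 1015 to 1068 in hCD4+ pre-pro-B cells, with 10 of 10 above background in both, and GMP markers to 135 to 150 and 18.9 to 43.4. Their part was not tested. Higher ones were 61.1% of all called genes, 48.0% with cyclic loess and 39.2% with array-median scaling. With array-median scaling 9 members were called higher and 1 lower, with a median of 0.44.

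Within 1 slide, hCD4- pro-B cells were compared with hCD4+ pre-pro-B cells, a step that changes both stage and reporter state. Here 34 of the 41 were called higher and none lower, where 29.2% of all genes were called higher and 18.6% lower, with a median of 0.96 against 0.15 for all genes. In all 41 genes the hCD4- pro-B arrays lay above the hCD4+ pre-pro-B arrays, a description given without the share of all genes. For Aurkb neither hCD4+ pre-pro-B array was above background. The largest rises were those of Cdc25b, 2.27 (standard error 0.19, adjusted p = 2.46e-05), Cenpn, 1.59 (standard error 0.51, adjusted p = 0.031), Bub1b, a checkpoint kinase, 1.55 (standard error 0.28, adjusted p = 0.0021), and Ccnb1, 1.45 (standard error 0.17, adjusted p = 0.000162). Bub1b had levels of 2.35 and 2.06 on the hCD4- pro-B and 0.87 and 0.44 on the hCD4+ pre-pro-B arrays. Of the midzone and cytokinesis genes 3 of 6 were called, and Racgap1 (0.25), Kif23 (0.26) and Anln (0.32), a scaffold of the contractile ring, were not. Of the calls of all genes 61.1% were higher, and 49.2% with cyclic loess.

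Few members were called between pre-B and pro-B cells. Against hCD4- pro-B cells 6 of the 41 were lower and none higher, where 19.7% of all genes were called higher and 21.4% lower, with a median of -0.17 against 0.03. Ect2 changed by -0.84 (standard error 0.16, adjusted p = 0.00419), Ccnb1 by -0.75 (standard error 0.17, adjusted p = 0.00837), Kif20a, a kinesin of the midzone, by -0.49 (standard error 0.15, adjusted p = 0.0332) and Cdc25c, another phosphatase that activates Cdk1, by -0.48 (standard error 0.16, adjusted p = 0.0462). Ect2 had levels of 1.74 and 1.65 on the pre-B and 2.58 and 2.49 on the hCD4- pro-B arrays, and the arrays did not overlap, but its other probe changed by 0.26. Kif20a had 2.87 and 2.91 on the pre-B and 3.44 and 3.31 on the hCD4- pro-B arrays, and Cdc25c -1.60 and -1.43 and -0.95 and -1.12. Aurka and Cenpe were the remaining 2. Neutrophil markers summed to 0.55 to 0.85 in pre-B and 14.2 to 25.8 in hCD4- pro-B cells, and those of plasmacytoid dendritic cells to 298 to 311 and 150 to 155. Their part was not tested. The count was 1 without hCD4- pro-B replicate 1, 2 without hCD4- pro-B replicate 2 and 2 without either pre-B array. Of the calls of all genes 47.9% were higher, and 34.8% with array-median scaling.

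Within the slide that held both, pre-B and hCD4+ pro-B cells differed in 6 of the 41 genes, 3 higher and 3 lower, where 18.8% of all genes were called higher and 24% lower. The median change was -0.07 against 0.01. Cdc25b was higher by 1.72 (standard error 0.19, adjusted p = 0.000185), Racgap1 by 0.45 (standard error 0.12, adjusted p = 0.0141) and Ccnb2 by 0.43 (standard error 0.11, adjusted p = 0.0166). These 3 were also among the 4 lower in hCD4+ than in hCD4- pro-B cells, a comparison that shares the hCD4+ pro-B arrays. The lower ones were Ccnb1, -0.55 (standard error 0.17, adjusted p = 0.0281), Cdk1, -0.42 (standard error 0.12, adjusted p = 0.0204), and Aurka, the kinase of the spindle poles, -0.39 (standard error 0.13, adjusted p = 0.0397). Aurka had levels of 3.48 and 3.45 on the pre-B and 3.85 and 3.85 on the hCD4+ pro-B arrays. GMP markers summed to 3.97 to 4.85 in pre-B cells, where Prtn3, Ms4a3, Cebpa and Cebpe were above background on neither array, and to 135 to 150 in hCD4+ pro-B cells, and their part was not tested. Without hCD4+ pro-B replicate 2 the count was 3, without either pre-B array it was 1, and with array-median scaling the 3 calls were all higher.

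DNA replication genes were set beside the members in that step. In pre-B against hCD4+ pro-B cells 19 of 30 were lower and none higher, with a median of -0.61, among them Tk1, thymidine kinase, -1.15 (standard error 0.12, adjusted p = 0.000131), and Cdt1, which licenses origins, -0.89 (standard error 0.16, adjusted p = 0.00221). Against hCD4- pro-B cells 16 of 30 were lower and 1 higher, with a median of -0.46. Of the 14 genes around the restraint of mitosis 6 were higher and 2 lower in pre-B than in hCD4+ pro-B cells. The largest rises were those of Gadd45g, 2.20 (standard error 0.18, adjusted p = 4.66e-05), Btg1, 2.18 (standard error 0.14, adjusted p = 1.6e-05), and Btg2, 2.14 (standard error 0.40, adjusted p = 0.00335), known as growth arrest genes. The 2 lower were the inhibitor genes Cdkn1a, -1.17 (standard error 0.27, adjusted p = 0.00828), and Wee1, -0.52 (standard error 0.14, adjusted p = 0.0198). Against hCD4- pro-B cells Gadd45g changed by 1.28, Btg1 by 1.07, Btg2 by 1.16 (adjusted p = 0.0498) and Cdkn1a by -1.30 (adjusted p = 0.00587). The members and these lists were not tested against each other.

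GMP, the myeloid progenitors, lay between. Within 1 slide, 38 of the 41 were called higher in GMP than in hCD4- pre-pro-B cells and none lower, where 34.7% of all genes were called higher and 30.8% lower, with a median of 2.35 against -0.04. The largest rises were those of Cdk1, 4.12 (standard error 0.12, adjusted p = 6.06e-08), Nuf2, 3.71 (standard error 0.45, adjusted p = 0.000125), Cenpn, 3.65 (standard error 0.51, adjusted p = 0.000294), and Kif20a, 3.14 (standard error 0.15, adjusted p = 6.89e-07). Kif20a had levels of 2.78 and 2.91 on the GMP and -0.14 and -0.46 on the hCD4- pre-pro-B arrays. Hmmr (0.28), Cenpf and Aurkb were not called. Cenpf was above background on no array of either group, and Aurkb on 1 of 2 in each. Markers of plasmacytoid dendritic cells summed to 129 to 132 in GMP and 1368 to 1407 in hCD4- pre-pro-B cells, and their part was not tested. The other Ect2 probe changed by -0.38, where the brightest gave 2.38. Among all called genes 53.0% were higher, and 69.1% with array-median scaling.

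Against hCD4+ pre-pro-B cells, GMP had 4 members higher and 8 lower, where 31.3% of all genes were called higher and 22.8% lower. The median change was -0.02 against 0.10 for all genes, and 0.13 against 0.25 with array-median scaling. It was negative with quantile normalization, cyclic loess and the authors' deposited table, so its sign depended on the scaling. The 4 were Cks2, 0.92 (standard error 0.30, adjusted p = 0.0305), Cdk1, 0.89 (standard error 0.12, adjusted p = 0.000306), Mad2l1, the checkpoint protein that binds Cdc20, 0.54 (standard error 0.17, adjusted p = 0.0282), and Kif20a, 0.54 (standard error 0.15, adjusted p = 0.016). The largest falls were those of Cenpf, at least 1.76-fold lower (adjusted p = 0.000326), Cdc25b, -1.26 (standard error 0.19, adjusted p = 0.000584), Kif23, -0.69 (standard error 0.22, adjusted p = 0.0275), and Racgap1, -0.61 (standard error 0.12, adjusted p = 0.00234). Mad2l1 had levels of 3.02 and 2.97 on the GMP and 2.58 and 2.32 on the hCD4+ pre-pro-B arrays, and Cenpf of -5.77 and -5.84 and -3.49 and -4.11. The count of 12 was 7 without GMP replicate 1, 6 without GMP replicate 2 and 7 without hCD4+ pre-pro-B replicate 1. Of the calls of all genes 57.9% were higher, and 47.5% with cyclic loess.

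Against pre-B cells, GMP had 30 members lower and none higher, where 30.6% of all genes were called higher and 34.4% lower, with a median of -0.87 against -0.13. The largest falls were those of Cdc25b, -3.83 (standard error 0.19, adjusted p = 7.18e-07), Cenpf, at least 3.22-fold lower (adjusted p = 3.1e-05), Aurkb, above background on 1 of 2 GMP arrays, -2.63 (standard error 0.90, adjusted p = 0.0314), and Ndc80, the subunit that names its complex, -1.62 (standard error 0.21, adjusted p = 0.00024). Ndc80 had levels of -0.90 and -0.36 on the GMP and 0.82 and 1.15 on the pre-B arrays, which did not overlap. DNA replication genes went the other way, with 14 of 30 higher and 3 lower in GMP (median 0.40), Tk1 by 1.36 (standard error 0.12, adjusted p = 1.93e-05), Cdt1 by 1.34 (standard error 0.16, adjusted p = 0.000112) and Mcm6, a helicase subunit, by 1.24 (standard error 0.12, adjusted p = 3.67e-05), while Ccne2, cyclin E2, was at least 2.25-fold lower (adjusted p = 4.24e-06). With array-median scaling, which put 65.6% of the calls of all genes higher against 47.1%, 10 members were lower and the median was -0.43, and the change of Cdk1 was 0.09 (adjusted p = 0.64) in place of -0.35 (standard error 0.12, adjusted p = 0.0282).

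**Figure D5:**
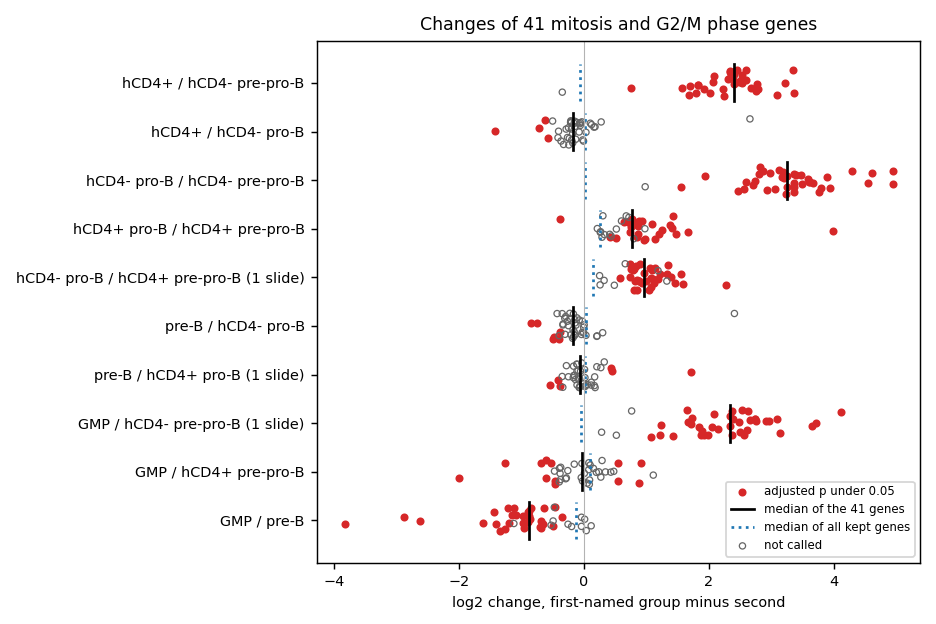
Log2 changes (horizontal axis, first-named group minus second) of the 41 genes in the 10 comparisons, filled red where the adjusted p is under 0.05 and open where it is not, with the members' median as a black line and that of all genes as a dotted blue line. The medians are 2.40, 3.25 and 2.35 in the 3 comparisons against hCD4- pre-pro-B cells, which share those 2 arrays, and lie between -0.87 and 0.96 in the others.

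The members moved together over the 12 arrays. Each gene's level was correlated with the median level of the other members, and Pearson's r was 0.51 to 1.00 with a median of 0.98, over 0.9 in 37 genes. The 12 arrays come from 6 groups on 3 slides and are not independent points, so this is a description. Without the 2 hCD4- pre-pro-B arrays the median r was 0.90 and 21 genes stayed over 0.9. The lowest values were then those of Cks2 (0.49), Racgap1 (0.52), Mad2l1 (0.58) and Aurkb (0.64).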

How the data were processed

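The 12 samples were sorted marrow cells hybridised to one-colour (Cy3) arrays. Per the file headers, the scanner files were written by Feature Extraction 10.7.3.1 (Agilent; protocol GE1_107_Sep09). Their processed signal is, as deposited, a linear intensity after background correction, with mean and local background intensities beside it. The authors also deposited a table of log2 values, used as an alternative, whose normalization is not given in the sources used here. Here log2 of the processed signal was taken, each array's 75th percentile subtracted, 2469 spot values marked as outliers were set to missing and the spots of a probe averaged. Probes marked by the software as well above background on both arrays of 1 group or more were used (18559 of 31541 gene names), and the brightest such probe stood for its gene. limma 3.58.1 in R 4.3.3 fitted all 12 arrays in 6 groups (residual degrees of freedom 6), with Benjamini-Hochberg adjustment over all genes kept and a threshold of 0.05. Its code was tested on simulated data. The number of arrays limits the precision.

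Where no array of a group was above background, the fold is a bound: the bright group's mean against, on each array of the dim group, the higher of its lowest signal well above background and the probe's own. The adjusted p beside a bound belongs to limma's fit of the levels as measured and does not test the bound. All 41 members may be named. Values by array are given for 12 chosen members and for the 4 largest called rises and falls of a comparison, with up to 4 genes of any other list. The members and the lists were chosen with earlier results of these data known, and the rise of G2/M genes in hCD4+ pre-pro-B cells was among them. Probe positions are those of the array files, on mm9, and all 41 probe accessions matched RefSeq under the same symbol. Exon and UTR positions of probes are not given, since no mm9 annotation was used here. Figures used Python 3.11.15 with matplotlib 3.10.9. Alternatives were other background corrections, normalizations, filters and probe rules, array weights, the replicate number as a block, fewer arrays and each array left out. Leaving out both hCD4- pre-pro-B arrays was added after the data were seen.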

Additional observations from a re-analysis of the deposited data

Results flagged for a closer look

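The difference between the hCD4 contrasts of the pro-B and pre-pro-B stages was tested with limma as an interaction and drew attention because it was called for 40 of the 41 genes, all negative. It was -4.10 on the log2 scale for Cdc25b, -3.58 for Nuf2, -3.47 for Cenpn and -3.21 for Spc25. Cdc25b was lower in hCD4+ than in hCD4- pro-B cells (-1.42) and higher in hCD4+ than in hCD4- pre-pro-B cells (2.68). Nuf2 and Cenpn had the largest changes in pre-pro-B cells and were above background on 1 of the 2 hCD4- pre-pro-B arrays. These differences share their pre-pro-B arrays with the reporter comparison in pre-pro-B cells. The count of 40 here is thus not separate evidence from the count of 40 there. The share of these differences due to slides was not tested and cannot be told apart from the groups. With each of the 12 arrays left out in turn the count of called genes was 37 to 41.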

How the results depend on the processing

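Over the alternatives other than leaving out an array, these counts and medians moved beyond 1.5 times or beyond the replicate spread. With array-median scaling the members' median change was 2.71 (hCD4+ against hCD4- pre-pro-B), -0.40 (hCD4+ against hCD4- pro-B), 0.44 with 10 calls (hCD4+ pro-B against pre-pro-B), 2.80 (GMP against hCD4- pre-pro-B), -0.43 with 10 calls (GMP against pre-B) and -3.11 (difference of contrasts), pre-B against hCD4+ pro-B had 3 calls, and Cdk1 in GMP against pre-B turned to 0.095. With the authors' deposited table the medians were 2.15, 2.80 (hCD4- pro-B against pre-pro-B), 1.60 (GMP against hCD4- pre-pro-B), -0.25 (GMP against hCD4+ pre-pro-B) and -2.25 (difference), and hCD4+ against hCD4- pro-B had 7 calls. Normexp with quantile normalization gave 2.97 (hCD4- pro-B against pre-pro-B), 1.90 (GMP against hCD4- pre-pro-B) and -2.34 (difference). For GMP against hCD4+ pre-pro-B, quantile normalization gave -0.25, cyclic loess -0.32 and no filter 7 calls. For GMP against hCD4- pre-pro-B, cyclic loess gave 2.01 and the mean of probes 2.09. For hCD4+ against hCD4- pro-B, array weights gave 7 calls, as did leaving out both hCD4- pre-pro-B arrays. Pre-B against hCD4- pro-B had 3 calls with quantile normalization, 3 with cyclic loess and 2 with no filter, and pre-B against hCD4+ pro-B had 3 with no filter. The causes were not tested.

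With each array left out in turn, the count of called members and their median change ran from 39 to 41 and 2.18 to 2.58 (hCD4+ against hCD4- pre-pro-B), 2 to 7 and -0.29 to -0.07 (hCD4+ against hCD4- pro-B), 40 to 41 and 3.11 to 3.62 (hCD4- pro-B against pre-pro-B), 19 to 34 and 0.70 to 0.89 (hCD4+ pro-B against pre-pro-B), 25 to 37 and 0.90 to 1.08 (hCD4- pro-B over hCD4+ pre-pro-B), 1 to 8 and -0.25 to -0.12 (pre-B against hCD4- pro-B), 1 to 6 and -0.07 to -0.04 (pre-B against hCD4+ pro-B), 38 to 39 and 2.10 to 2.52 (GMP against hCD4- pre-pro-B), 6 to 16 and -0.13 to 0.06 (GMP against hCD4+ pre-pro-B), 21 to 33 and -0.92 to -0.77 (GMP against pre-B), and 37 to 41 and -2.79 to -2.32 (difference). A lone array is then assumed to vary like the other groups. With the replicate number as a block, hCD4+ pro-B against pre-pro-B had 30 calls, pre-B against hCD4- pro-B 7, and hCD4+ against hCD4- pre-pro-B 40. No count of calls moved by over 1.5 times. Deviations of same-numbered arrays correlated at -0.01 to 0.25 over the 15 pairs of groups (median 0.15, over 0.1 in 10), and 36 to 38 of the 41 members were lower on replicate 2 in 3 groups and 19 to 27 in the other 3. The numbers were not taken as pairs, since not every correlation was over 0.1 and no label ties them to animals. Of 6743 gene values under alternatives 417 lost their call and 1 changed sign.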
